A study of Mus musculus with 8 samples.

Results

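Line 112, a mouse melanoma line with a Stat3 knockout, was compared with line 119, a wild-type melanoma line. The assay was ATAC-seq: a transposase cuts open chromatin and leaves sequencing adapters there. The comparison takes 4 of the 8 libraries of the study, 2 per line. Of the 148664 regions with deposited counts, 134068 had enough counts to be tested. The question of the series is a link from STAT3 over C/EBP factors to MITF and the pigmentation genes. The lines were grown as primary pools from lymph node suspensions of mice whose skin melanoma appeared at 25 to 30 weeks of age, and 50000 cells entered each reaction. Line 112 carries the Stat3∆ genotype and p18 in its titles. Line 119 carries the Stat3fl genotype, labelled wild type, and p14. What the number after p stands for, which Cre and which melanoma driver the mice carried, and which part of Stat3 was deleted are not given in the sources used here. Each genotype is represented here by 1 line, so the tests compare these lines and not the genotypes, and the p-values measure only the spread between the libraries of a line. The labels call the libraries biological replicates and do not say whether they came from separate cultures.

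STAT3 is a transcription factor that cytokine and growth factor receptors activate through Janus kinases. MITF directs the melanocyte lineage and binds the short motif known as the M-box in front of pigmentation genes such as Tyr, Tyrp1 and Dct, whose enzymes make melanin. Melanoma cells can lose this pigmented state and take on an invasive, dedifferentiated one, in which AP-1 and TEAD factors and genes of matrix and proteases are known to be active. Accessible chromatin at a promoter or an element marks DNA that factors can reach, and it is not a measure of transcription.

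The promoters at which the pigment results turn are shown first, as windows from 250 bases before to 50 bases after the RefSeq start (GRCm38.p6, read along the gene's strand). Mitf has several starts, and the third of them, at chr6:97991533-97991832 on the + strand, is the one that differed most. The others are Dct at chr14:118052197-118052496 (- strand), Tyr at chr7:87493463-87493762 (- strand) and Tyrp1 at chr4:80833963-80834262 (+ strand). Capitals mark matches, on either strand, to any of the 9 motifs searched: CATGTG (the M-box core of MITF), CACGTG (E-box), ACAATG (SOX), TTCNNNGAA (STAT), TTGCNNAA (C/EBP), TGANTCA (AP-1), GGAATG (TEAD), TGTGGT (RUNX) and CCACNAGG (CTCF core).
Mitf, the third start: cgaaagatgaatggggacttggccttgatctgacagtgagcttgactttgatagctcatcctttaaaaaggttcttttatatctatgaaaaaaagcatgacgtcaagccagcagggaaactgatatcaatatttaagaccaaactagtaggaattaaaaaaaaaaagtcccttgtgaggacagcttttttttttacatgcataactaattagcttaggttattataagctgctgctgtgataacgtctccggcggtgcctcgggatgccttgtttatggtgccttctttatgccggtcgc
Dct: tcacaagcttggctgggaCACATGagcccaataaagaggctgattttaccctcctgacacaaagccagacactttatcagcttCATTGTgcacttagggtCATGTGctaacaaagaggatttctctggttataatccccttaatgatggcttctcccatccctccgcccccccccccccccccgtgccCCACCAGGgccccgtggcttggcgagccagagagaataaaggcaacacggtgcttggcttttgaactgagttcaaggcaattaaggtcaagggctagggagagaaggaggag
Tyr: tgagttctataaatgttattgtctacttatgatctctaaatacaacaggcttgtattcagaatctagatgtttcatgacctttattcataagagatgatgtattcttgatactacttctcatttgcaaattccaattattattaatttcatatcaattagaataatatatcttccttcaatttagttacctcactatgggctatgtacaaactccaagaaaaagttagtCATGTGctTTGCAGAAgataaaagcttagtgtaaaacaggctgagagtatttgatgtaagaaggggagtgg
Tyrp1: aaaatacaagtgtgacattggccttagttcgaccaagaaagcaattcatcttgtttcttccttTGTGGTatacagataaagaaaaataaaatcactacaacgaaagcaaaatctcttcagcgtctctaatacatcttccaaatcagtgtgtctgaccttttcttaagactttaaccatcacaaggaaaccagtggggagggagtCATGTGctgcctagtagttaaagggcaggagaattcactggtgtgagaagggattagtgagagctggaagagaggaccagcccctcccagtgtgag
The Dct window holds M-box letters with their first base at -232 and -150 from the start, SOX letters at -167 and CTCF core letters at -62. In Tyr the M-box letters begin at -21 and C/EBP letters at -13. In Tyrp1 the M-box letters begin at -46 and RUNX letters at -187, while 0 of the 9 motifs were matched in the Mitf window. C/EBP letters were found in 10.8% of all 32851 RefSeq windows of this length, M-box letters in 14.2%, SOX letters in 12.6%, RUNX letters in 16.8% and CTCF core letters in 4.99%. A match of letters is not a bound site.

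For the opposite direction, 3 promoters with far fewer counts in line 112 are shown in the same way. They are Sox2 at chr3:34649745-34650044 (+ strand), Dclk1 at chr3:55461478-55461777 (+ strand) and Mt2 at chr8:94172368-94172667 (+ strand).
Sox2: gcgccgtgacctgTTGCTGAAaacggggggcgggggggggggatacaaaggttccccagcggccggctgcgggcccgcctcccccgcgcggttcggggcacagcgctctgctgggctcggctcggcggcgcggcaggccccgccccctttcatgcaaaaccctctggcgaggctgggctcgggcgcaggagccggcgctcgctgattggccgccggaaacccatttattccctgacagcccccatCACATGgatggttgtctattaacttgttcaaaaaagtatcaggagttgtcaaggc
Dclk1: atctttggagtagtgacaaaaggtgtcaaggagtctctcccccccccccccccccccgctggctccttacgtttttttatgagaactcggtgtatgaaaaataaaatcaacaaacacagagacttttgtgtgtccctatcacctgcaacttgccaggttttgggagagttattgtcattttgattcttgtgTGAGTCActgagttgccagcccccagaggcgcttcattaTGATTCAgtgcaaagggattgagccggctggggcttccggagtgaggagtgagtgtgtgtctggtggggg
Mt2: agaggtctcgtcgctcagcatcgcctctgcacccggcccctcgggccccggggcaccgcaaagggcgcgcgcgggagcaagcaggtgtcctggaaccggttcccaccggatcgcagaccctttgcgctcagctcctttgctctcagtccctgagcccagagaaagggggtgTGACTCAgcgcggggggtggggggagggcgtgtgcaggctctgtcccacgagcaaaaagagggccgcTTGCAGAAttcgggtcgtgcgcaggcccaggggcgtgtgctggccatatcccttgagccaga
AP-1 letters begin at -59 and -20 in Dclk1 and at -79 in Mt2, where C/EBP letters begin at -12. In Sox2, M-box letters begin at -5 and C/EBP letters at -237.

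The 4 libraries held 3993473 and 2697546 counts in replicates 1 and 2 of line 112 and 7464336 and 5736939 counts in those of line 119. The strongest 10% of regions took 45.9% and 40.1% of the counts in line 112 and 39.6% and 40.4% in line 119. Levels are given as CPM, counts per 1000000 after TMM scaling, and differences as log2 fold changes of line 112 over line 119. Replicates correlated at 0.866 in line 112 and 0.959 in line 119 across regions, and libraries of the different lines at 0.526 to 0.567, where regions are not independent. The chi-square of the replicate counts per degree of freedom was 2.19 in line 112 and 1.07 in line 119. The replicates of line 119 still differed beyond counting noise (chi-square test over regions, p 1.47e-58), so both were kept. In a pool of cells, more cells with an open region and more frequent cutting per cell cannot be told apart.

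Differences between the lines were spread over the whole genome. By edgeR's quasi-likelihood test at a Benjamini-Hochberg adjusted p of 0.05, 65214 regions (48.6%) differed, 31358 higher (23.4%) and 33856 lower (25.3%) in line 112. At least 4-fold changes were called in 10807 regions (8.06%) upward and 10972 (8.18%) downward. A locus takes each region whose nearest protein-coding gene end, on either side of a gene, lies within 50 kb. A region further from any gene end goes to the gene it lies inside. Summed by locus, 8664 of 17466 loci (49.6%) differed, 4093 higher (23.4%) and 4571 lower (26.2%). At least 4-fold, 377 loci (2.16%) were higher and 306 (1.75%) lower. Scaling by regions at gene ends alone moved the median of all regions by -0.20 and the split of calls from 48.1% higher and 51.9% lower to 37.9% and 62.1%. The same scaling made the locus split 32.9% higher and 67.1% lower, and total counts made it 57.3% and 42.7%, from 47.2% and 52.8%. A member list is therefore read below against these shares, and a share near them is not a result about the list.

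Levels also differed between chromosomes and along them, and these values go beside each result they touch. Among the weak regions, the lower 50% by mean level, those on chromosome 6 had a median log2 fold change of 1.48. On chromosome 6, 56.4% of regions were called higher and 10.3% lower, and it held 2281 (21.1%) of the 10807 regions at least 4-fold higher with 6.6% of the tested regions. Against the median of the 4 lines, its weak regions stood at 0.83 (log2) in line 112 and -0.19 in line 119, with lines 113 and 73 at -0.03 and 0.03. Line 112 was also low on chromosome 3, at -0.45, and on chromosome 5, at -0.30. These levels were uneven along the chromosomes. By 10 Mb window, the median log2 fold change of weak regions ran from 0.62 to 2.19 on chromosome 6. It ran from -1.09 to 0.30 on chromosome 3 and from -1.18 to 0.72 on chromosome 5. Copy number was not measured, and its part in these values was not tested. A second estimate, called regional below, sets each 10 Mb window to the level of its own weak regions. It left 676 regions at least 4-fold higher and 690 at least 4-fold lower on chromosome 6. Of 103 loci named here it moved 28 by more than 1.5 times, 16 of them among the 17 on chromosome 6.

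**Figure D1:**
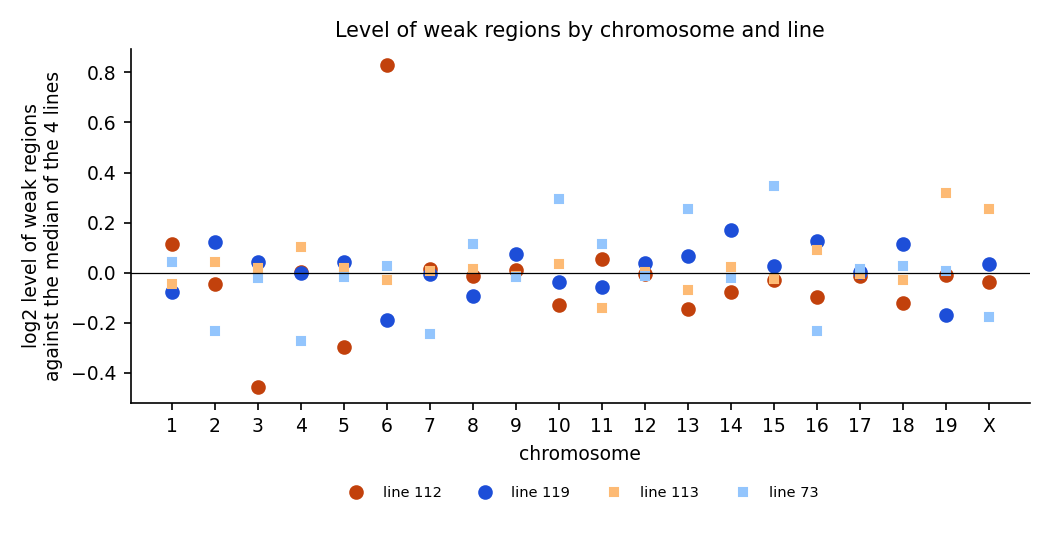
Level of the weak regions of each chromosome in each of the 4 lines, as log2 against the median of the lines. Chromosome Y is left out. Line 112 stands at 0.83 on chromosome 6 and at -0.45 on chromosome 3.

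The labelled cell type was checked on its markers. Of 8 melanocyte and melanoma marker loci, 6 were higher in line 112 and 0 lower, and their summed level was 1331 and 1242 CPM in line 112 and 863 and 846 CPM in line 119. Of lymph node cell types, 1 of 5 T cell loci was higher and 1 lower, 0 of 4 B cell loci were higher and 3 lower, and 1 of 7 myeloid loci was higher and 1 lower. The T cell sums were 103 and 108 CPM in line 112 against 129 and 133 CPM in line 119, the B cell sums 103 and 123 against 140 and 157, and the myeloid sums 162 and 198 against 189 and 190. Cd3g, Cd4, Trac, Cd22, Cd79a, Cd79b and Adgre1 had too few counts to be tested. Endothelial loci (1 of 7 higher, 5 lower) summed to 280 and 372 CPM in line 112 and 548 and 511 CPM in line 119, with Erg at 40.4 and 65.3 against 158 and 153 CPM, a call lost from gene ends within 1 kb (-0.49). Fibroblast loci (1 of 8 higher, 1 lower) summed to 507 and 591 against 496 and 499 CPM. The part of other cell types in the results below was not tested.

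Stat3 itself stayed accessible in the knockout line. Its start region (chromosome 11, 100939208 to 100939818, inside the gene) had 131 and 84 counts in line 112 and 141 and 108 in line 119. These are 30.9 and 26.6 CPM against 18.3 and 18.3 CPM, so the libraries of line 112 were the higher ones and the lines did not overlap. The log2 fold change was 0.66 ± 0.20 (SE) with an adjusted p of 0.0046, and the whole locus was at 0.60 ± 0.13 (adjusted p 0.000415). The regional estimate gave 0.12 for the region (adjusted p 0.633) and 0.06 for the locus (adjusted p 0.724), so neither call held there. The call of the region was also lost with DESeq2 (adjusted p 0.0605) and without replicate 1 of line 119 (adjusted p 0.0537). Of 7 tested regions inside Stat3, 3 were higher and 0 lower. All 11 deposited regions inside the gene had counts in line 112, 469 in sum against 546 in line 119. Since the deleted part is not named, these counts do not check the genotype labels.

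Beside Stat3, line 119 had almost no counts over Stat5b and Stat5a, which encode close relatives of STAT3 that also act below cytokine receptors. Over 9 consecutive regions on chromosome 11, from 100789591 to 100860690, line 112 had 333 and 249 counts and line 119 had 2 and 0. The other lines had signal there too, 626 counts in line 113 and 608 in line 73, so line 119 stood alone. Along these regions the Stat5a regions had 142 and 83 counts in line 112 and 0 in both libraries of line 119. That is 30.4 CPM against a limit of 0.220 CPM (3 counts over both libraries, counting error only), at least 138-fold higher in line 112. At the Stat5b locus the ratio of line 112 over line 119, with 357 counts against 2, was 329 (95% exact interval 90.3 to 2723). Genes on both sides had counts in both lines, Stat3 on one side and Ghdc and Hcrt on the other. Ghdc had 59 and 42 counts in line 112 and 71 and 67 in line 119, a ratio of 1.35 (1.03 to 1.75), and Hcrt, beyond it, had 14 and 18 against 19 and 18. Whether these bases are present in line 119 was not tested.

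**Figure D2:**
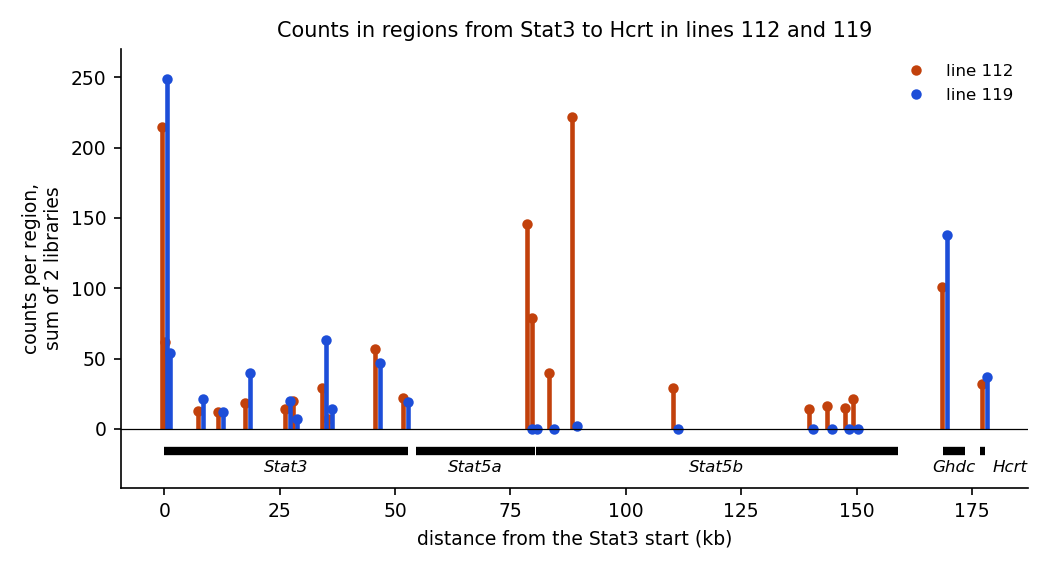
Counts per region, summed over the 2 libraries of each line, against the distance from the Stat3 start in kb, with bars for the genes Stat3, Hcrt, Stat5b, Stat5a and Ghdc. Line 119 holds 2 counts over the 9 regions of Stat5b and Stat5a, where line 112 holds 582, and both lines have counts at Stat3 and Ghdc.

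The starts of the melanin enzymes were several-fold more accessible in line 112. Dct, which encodes dopachrome tautomerase, had 107 and 67 counts in line 112 and 26 and 25 in line 119 at its start region (chromosome 14, 118052215 to 118052856). In CPM these were 25.3 and 21.2 against 3.37 and 4.24, with a log2 fold change of 2.63 ± 0.26 (SE, adjusted p 9.22e-12). Tyr, which encodes tyrosinase, the rate-limiting enzyme of melanin synthesis, had 52 and 22 counts against 7 and 3 (chromosome 7, 87492930 to 87493609). Its level was 12.3 and 6.96 CPM in line 112 and 0.907 and 0.509 CPM in line 119, a log2 fold change of 3.70 ± 0.43 (adjusted p 6.23e-10). Tyrp1, whose enzyme acts later in the same pathway, had the fewest counts of these starts, 24 and 16 against 8 and 6 (chromosome 4, 80833919 to 80834951). That is 5.67 and 5.06 CPM against 1.04 and 1.02 CPM, a log2 fold change of 2.36 ± 0.45 (adjusted p 2.36e-05). In all of these the lowest library of line 112 lay above the highest of line 119.

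The next region upstream of Tyr, from 87493991 to 87495202, had 91 and 46 counts in line 112 and 38 and 28 in line 119, a log2 fold change of 1.91. Of 4 tested regions inside Tyr, 4 were higher and 0 lower. Inside Dct 3 were higher and 1 lower of 4, and inside Tyrp1 also 3 and 1 of 4. A region of Dct just inside the gene (118050464 to 118051849) had 103 and 71 counts against 14 and 9, while one deeper in the gene (118023802 to 118024311) went the other way, with 9 and 9 against 63 and 63. Summed over whole loci the differences were smaller. Dct had 128 and 134 CPM against 88.3 and 84.4 CPM (log2 0.59, adjusted p 0.000216), and Tyr 113 and 81.1 CPM against 77.5 and 75.5 CPM (0.36, adjusted p 0.0358). The Tyr locus call was lost with DESeq2 and without replicate 1 of line 112, where the value was 0.04, or either replicate of line 119. The Tyrp1 locus had 59.7 and 62.9 CPM against 68 and 58.9 CPM (-0.06, adjusted p 0.745). With at least 50 counts per region it was called lower (-1.23, adjusted p 9.85e-05), and from regions within 1 kb of a gene end higher (1.03, adjusted p 0.0154). Of the 31 regions assigned to these 3 genes, 11 (35.5%) were at least 4-fold higher and 0 lower, against 7.77% and 6.73% of all regions assigned to a gene.

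Mitf differed between its starts. At the third start (chromosome 6, 97991085 to 97992009) line 112 had 75 and 36 counts and line 119 had 6 and 4. The levels were 17.7 and 11.4 CPM against 0.778 and 0.678 CPM, a log2 fold change of 4.28 ± 0.39 (SE, adjusted p 1.72e-12) and 3.99 in the regional estimate. The first start (97806694 to 97807718) had 123 and 68 counts against 133 and 121 and did not pass (log2 0.44, adjusted p 0.0578), although it did without replicate 2 of line 112, at 0.59, and with total counts, at 0.56. The second start (97928987 to 97929908) lay between, with 14 and 16 counts against 9 and 7 (1.77, adjusted p 0.00197), a call that was lost in DESeq2 (adjusted p 0.0601). The fold change was thus smallest at the first start and largest at the third.

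The elements inside Mitf went both ways, with more of them higher. Of 40 tested regions inside it, 19 were higher in line 112 and 3 lower. A region inside the gene at 97964504 to 97965222 had 85 and 46 counts in line 112 and 6 and 4 in line 119 (log2 4.53, adjusted p 1.4e-13). Another at 97918005 to 97918983 had 84 and 41 against 9 and 7 (3.79). In contrast, the region at 97885533 to 97886041 had 20 and 15 counts in line 112 and 114 and 87 in line 119 (-1.64, adjusted p 1.07e-05). Over the whole locus of 48 regions Mitf had 458 and 409 CPM against 244 and 236 CPM, 1.81-fold higher (adjusted p 1.59e-07), with 17 regions at least 4-fold higher and 1 lower, and the regional estimate was 0.55 on the log2 scale. From regions within 1 kb of a gene end alone the locus did not pass (0.31).

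**Figure D3:**
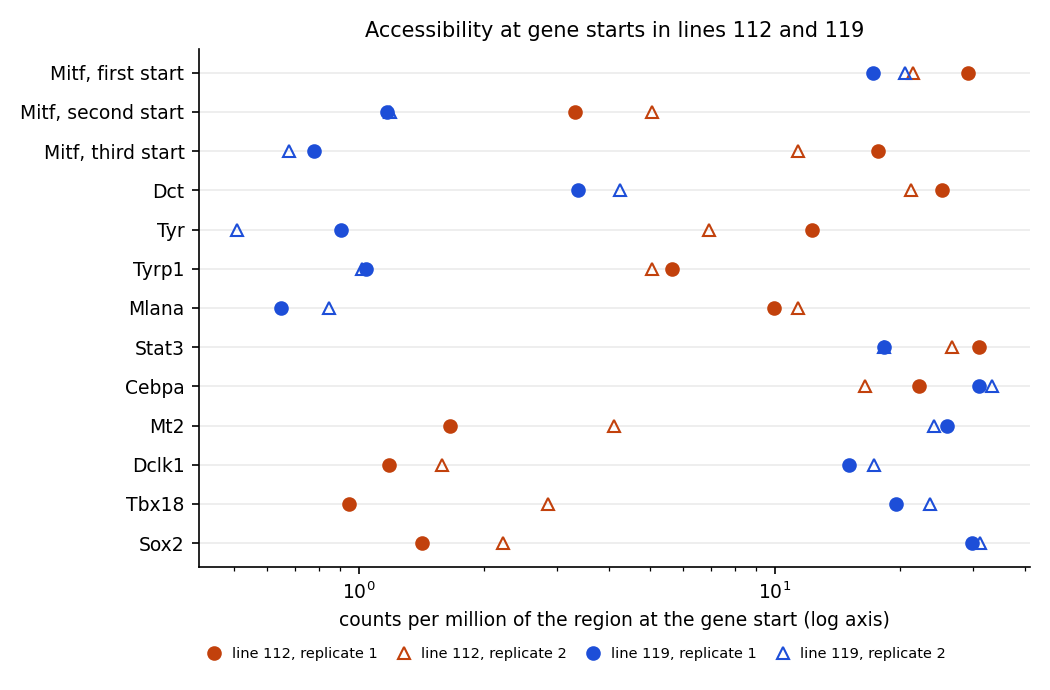
Level of 13 start regions in the 4 libraries, in CPM on a log axis, with filled circles for replicate 1 and open triangles for replicate 2 of each line. The third start of Mitf and the starts of Dct, Tyr, Tyrp1 and Mlana lie higher in both libraries of line 112, and those of Cebpa, Mt2, Dclk1, Tbx18 and Sox2 lie lower.

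Other melanosome genes were mixed, with a few large differences. Of 19 melanosome loci, 9 were higher and 4 lower, with a median log2 fold change of 0.20 against 0.00 over all loci. With at least 50 counts per region 3 of 14 were higher and 5 lower, with a median of -0.0465. Of their 159 regions, 29 (18.2%) were at least 4-fold higher and 9 (5.66%) lower. Oca2, a melanosomal anion transport protein, had 177 and 149 CPM in line 112 and 19.3 and 17.6 CPM in line 119. That is 8.84-fold higher (log2 3.14 ± 0.14, adjusted p 1.74e-14), and 14 of its 16 regions were at least 4-fold higher. Mlana, a melanosome protein and melanoma antigen, had 45.8 and 47.6 CPM against 6.94 and 8.92 CPM, 5.93-fold higher. Its start region (chromosome 19, 29697056 to 29697821) had 42 and 36 counts against 5 and 5, and a region further in had 87 and 50 against 11 and 12.

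Mlph, which links melanosomes to the actin motor, had 137 and 142 CPM in line 112 and 53.1 and 59.6 CPM in line 119 (log2 1.31). Gpnmb, a melanosomal glycoprotein on chromosome 6, had 238 and 239 against 98.3 and 95.3 CPM (1.30, but 0.48 in the regional estimate). Pmel, the fibril protein of the melanosome, had a start region shared with Rab5b that did not pass the test (log2 0.30, adjusted p 0.14). Another region inside Pmel (chromosome 10, 128706763 to 128707263) did, with 25 and 16 counts against 1 and 5 (3.56, adjusted p 4.46e-07). Of 4 tested regions inside Pmel, 3 were higher and 0 lower. Pmel's own locus, which holds 1 region, was at 0.20 (adjusted p 0.692).

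The transcription factors of the lineage did not move together. Of 13 such loci 5 were higher and 6 lower, with a median of 0.07, although 64 of their 313 regions (20.4%) were at least 4-fold higher and 9 lower. Without the members on chromosome 6 these were 3 and 6 of 11 loci and 16 of 170 regions (9.41%). Pax3, an activator of Mitf, had 339 and 318 CPM against 241 and 223 CPM (log2 0.50, adjusted p 0.000168). Of 24 regions inside Pax3, 15 were higher and 1 lower, and its start region, with 181 and 96 counts against 254 and 171, did not pass (0.25, adjusted p 0.252). With at least 50 counts per region the Pax3 locus was at 0.05 and its call was lost. Sox10, the neural crest factor that acts with Mitf, had 184 and 184 CPM against 133 and 154 CPM (0.36, adjusted p 0.0109). The Sox10 call was lost in the regional estimate, at 0.10, and without replicate 1 of line 119, at 0.22.

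Tfap2b was lower, with 21.9 and 33.5 CPM in line 112 against 73.4 and 72.0 CPM (log2 -1.43). Tbx2, a repressor with a role in melanocytes, was higher, with 152 and 150 against 73.6 and 79.4 CPM (0.98). Sox5 on chromosome 6 was 1.61-fold higher with 31 regions at least 4-fold higher, and the regional estimate reversed it to -1.06.

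Loci of dedifferentiated and neural crest-like melanoma were mostly lower in line 112. Of 20, 12 were lower and 1 higher, with a median log2 fold change of -0.37. Tnc, a matrix protein of invasive cells, had 141 and 120 CPM in line 112 and 259 and 272 CPM in line 119 (-1.01). Nes, an intermediate filament of neural progenitors, had 64.0 and 62.4 against 122 and 119 CPM (-0.93). Sox9, which opposes Sox10 in melanoma, had 60.5 and 74.4 against 130 and 121 CPM (-0.91). Its start region, with 146 and 111 counts against 486 and 366, was lower by a similar amount (-0.85). The libraries of the lines did not overlap at any of these 3 loci.

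Egfr, the receptor of epidermal growth factor, was lower over its locus, with 71.1 and 77.7 CPM against 165 and 134 CPM (log2 -1.02), but its parts disagreed. Of 20 regions inside it 4 were lower and 1 higher. A region inside the gene at 16895373 to 16895984 had 31 and 11 counts in line 112 and 180 and 129 in line 119 (-2.01), while the region just after the start (16752511 to 16753324) had 18 and 21 against 18 and 18 (0.99, adjusted p 0.0255, lost with DESeq2, without replicate 2 of line 112 and without replicate 1 of line 119). The regional estimate of the locus was 0.05 and the one from regions within 1 kb of a gene end was 0.83. Axl at -0.22 (adjusted p 0.117) and Ngfr at -0.24 (adjusted p 0.206), both receptors used as markers of this state, did not pass. The regional estimate called both lower, at -0.75 (adjusted p 1.91e-05) and -0.74 (adjusted p 0.000114), and so did scaling at gene ends, at -0.37 and -0.39. Ngfr was also called lower from gene ends within 1 kb (-0.76) and within 10 kb (-0.48), and Axl without replicate 1 of line 112 (-0.34). Cdkn2a, the locus of the p16 and ARF tumour suppressors, was lower, with 91.8 and 68.2 CPM against 128 and 126 CPM (-0.64, adjusted p 0.000206).

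The STAT3 pathway was close to the background. Of 23 loci of receptors, kinases, inhibitors and targets, 6 were higher and 4 lower, with a median of 0.03. With scaling at gene ends 5 were higher and 9 lower, where 2945 of all 17466 loci were higher and 6019 lower. Among the upstream members, Jak1, the kinase of the gp130 receptors, had 114 and 117 CPM in line 112 and 233 and 225 CPM in line 119 (log2 -0.99). Il6st, which encodes gp130 itself, had 78.7 and 80.6 against 143 and 134 CPM (-0.80). Lifr, its partner receptor, had 52.6 and 69.9 against 92.2 and 100 CPM (-0.67). All 3 were lower in both libraries of line 112. In line 113 against line 73, Jak1 was also called lower (-0.45), Il6st was not called (-0.11) and Lifr was called higher (0.68). From regions within 1 kb of a gene end alone, Jak1 (-0.33) and Il6st (-0.04) did not pass. Among the targets, Ccnd1, which encodes cyclin D1, was higher with 166 and 163 against 106 and 107 CPM (0.63) and Bcl3 lower (-0.47, adjusted p 0.00365, lost from gene ends within 1 kb). Socs3, the feedback inhibitor, had 169 and 184 CPM against 173 and 178 CPM, so its libraries overlapped (0.01, adjusted p 0.96), but the regional estimate called it lower (-0.43, adjusted p 0.00141). Myc, with 102 and 110 against 96.2 and 93.1 CPM, did not pass (0.15, adjusted p 0.328), but was called higher in the regional estimate (0.39, adjusted p 0.00782).

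Of the C/EBP family, the factors named in the study's question, 1 of 7 loci was higher and 2 were lower. Cebpd, known as an acute-phase target of STAT3, had 50.3 and 55.8 CPM in line 112 and 92.5 and 99.0 CPM in line 119 (log2 -0.86 ± 0.13, adjusted p 5.89e-06). Its start region had 107 and 76 counts against 349 and 267 (-0.87). Cebpa had 56.8 and 61.2 against 74.4 and 75.9 CPM (-0.35, adjusted p 0.0254), a call lost with DESeq2, with total counts and without replicate 1 of line 112 or either replicate of line 119. At its start region the counts were 94 and 52 against 238 and 196, or 22.2 and 16.4 CPM against 30.8 and 33.2 CPM (-0.71, adjusted p 0.00241). Ddit3, the stress-induced member, was higher with 129 and 118 against 90.3 and 84.2 CPM (0.50). Cebpb, with 82.7 and 115 against 105 and 107 CPM, overlapped (-0.12, adjusted p 0.5). Of the 23 regions of the family, 0 differed by at least 4-fold.

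Loci of matrix proteins were more often lower than higher. Of 20 loci of collagens and other matrix proteins, 13 were lower and 1 higher, with a median of -0.42. Of 20 integrin and laminin loci 8 were lower, 1 was higher and 11 were not called (-0.21), and from regions within 1 kb of a gene end 6 of 19 were lower, with a median of -0.0441. Col3a1, a fibrillar collagen, had 52.6 and 54.6 CPM in line 112 and 143 and 124 CPM in line 119 (log2 -1.32). Col5a2 (-1.07) and Col8a1 (-0.99) were lower by similar amounts. Lamb1, a chain of basement membrane laminin, had 70.2 and 99.2 against 211 and 221 CPM (-1.37), and Itga1, a collagen receptor, had 102 and 88.9 against 197 and 190 CPM (-1.01). In each of these loci both libraries of line 112 lay below both of line 119. From regions within 1 kb of a gene end alone, Itga1 (-0.04) did not pass.

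Secreted factors and proteases showed larger differences at a few loci. Of 21 cytokine and chemokine loci 8 were lower and 2 higher (median -0.31), and of 18 invasion protease loci 9 were lower and 2 higher (median -0.31). Ccl2, the monocyte chemoattractant, had 27.0 and 48.4 CPM in line 112 and 178 and 184 CPM in line 119. It was 4.97-fold lower (log2 -2.31 ± 0.17, adjusted p 9.71e-11), and 8 of its 12 regions were at least 4-fold lower. Timp1, an inhibitor of metalloproteinases on chromosome X, had 10.5 and 13.2 against 53.3 and 51.3 CPM, 4.48-fold lower. Mmp10, a stromelysin, had 12.8 and 12.8 against 52.9 and 41.1 CPM (-1.88). Mmp13, a collagenase, was at -1.84, but regions within 1 kb of its ends gave 0.33. Cxcl1, a neutrophil chemoattractant, was at -1.01.

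Lists of factors known to act at such genes were small, and their counts are set against the 23.4% higher and 26.2% lower of all loci. Of 14 AP-1 loci 4 were higher and 6 lower (median -0.20), with Jun at -0.48, Maff at 0.69 and Fosl1 at -0.57. In the regional estimate 3380 of all 17466 loci were higher and 5232 lower. There 2 AP-1 loci were higher and 9 lower, and Fosl1 was at -1.16. The Fosl1 call was lost with at least 50 counts per region (adjusted p 0.0809) and without replicate 1 of line 112 (adjusted p 0.0916). Of 11 TEAD, YAP and TAZ loci 2 were higher and 4 lower (median -0.02). Tead4 on chromosome 6 was at 1.22, which the regional estimate reversed to -0.48, and the YAP target Ccn1 was at -0.54. Of 4 Runx family loci 0 were higher and 2 lower, and in the regional estimate 4 were lower. Runx2, a bone and invasion factor, had 165 and 146 CPM against 236 and 239 CPM (-0.61), and of 33 regions inside it 8 were lower and 1 higher. The most different of them, at 44653042 to 44653596 on chromosome 17, had 11 and 5 counts in line 112 and 112 and 99 in line 119 (-2.84). Runx1 was at -0.53. From regions within 1 kb of a gene end alone Runx2 (-0.51) and Runx1 (-0.24) did not pass.

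**Figure D4:**
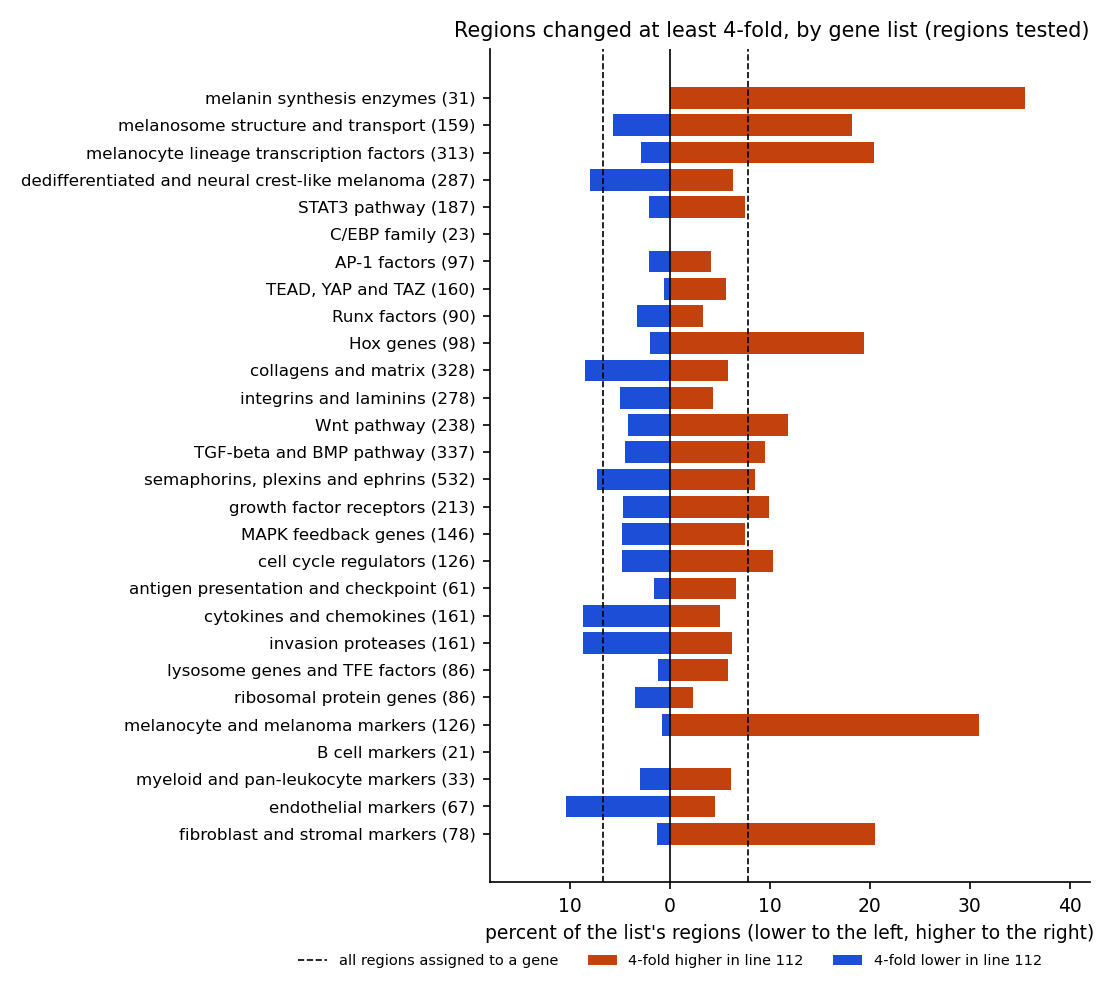
Share of each gene list's tested regions that were at least 4-fold higher (to the right) or lower (to the left) in line 112, in percent, for lists with at least 20 regions. Dashed lines give the same shares over all regions assigned to a gene, 7.77% and 6.73%, and the melanin enzymes reach 35.5% to the right.

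Signalling lists split by member. Of 26 Wnt loci 13 were higher and 6 lower (median log2 fold change 0.44). Wnt5b, a non-canonical ligand on chromosome 6, had 79.0 and 88.1 CPM in line 112 and 29.9 and 28.9 CPM in line 119 (1.5, regional 0.74). The receptor locus Fzd8 had 19.0 and 25.6 against 65.0 and 70.3 CPM (-1.62), while Fzd7 (0.77) and the secreted inhibitor Dkk3 (1.16) were higher. Of 22 TGF-beta and BMP loci 6 were higher and 9 lower. The ligand Bmp7 had 283 and 230 against 51.1 and 45.7 CPM, 5.30-fold higher (adjusted p 4.05e-13), and 13 of its 21 regions were at least 4-fold higher. Tgfb3, another ligand, was at 1.47 (regional 0.88), the latent-ligand binder Ltbp1 at -0.85 (from gene ends within 1 kb -0.25, not called) and the co-receptor Tgfbr3 at -0.81.

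Of 29 loci of semaphorins, plexins and ephrins, guidance ligands and their receptors, 8 were higher and 12 lower. Plxnc1 was at 1.22. Sema3e (-1.33) and Sema3c (-1.23) lie on chromosome 5, and in the regional estimate they were at -0.26 and -0.16, the latter no longer called. Of 14 growth factor receptor loci 6 were higher and 3 lower. Pdgfra had 132 and 142 CPM against 57.2 and 70.7 CPM (1.11). Among 12 MAPK feedback loci 4 were higher and 4 lower, with Dusp5, an ERK phosphatase, at 101 and 127 against 241 and 234 CPM (-1.07) and Spry1 at -0.86, reversed to 0.40 by the regional estimate.

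Of 17 cell cycle loci 7 were higher and 3 lower. Cdkn1b, which encodes the inhibitor p27, had 279 and 276 CPM against 113 and 110 CPM (1.31), and Ccnd2, a D-type cyclin, 178 and 211 against 75.1 and 73.1 CPM (1.38). Both lie on chromosome 6 and the regional estimate gave -0.19 and -0.31. Antigen presentation loci were split at 4 higher and 4 lower of 20, with the peptide transporter Tap2 at -0.88 (from gene ends within 1 kb -0.44, not called) and the class II regulator Ciita at 1.34. Lysosome loci (2 higher and 1 lower of 17) and ribosomal protein loci (9 and 1 of 35, median 0.13, but 3 and 7 in the regional estimate) had fewer calls. In that estimate 3380 of all 17466 loci were higher and 5232 lower.

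The Hox genes, which give cells their position along the body, were more often higher than lower, with the largest values in 1 cluster. Of 34 Hox loci 18 were higher and 2 lower, with a median of 0.86, and 9 of the 18 are in that cluster. The Hoxa cluster lies on chromosome 6 and had 9 of 9 loci higher, with a median of 2.2 that became 1.00 in the regional estimate. Its summed level was 358 and 500 CPM in line 112 and 93.9 and 94.2 CPM in line 119, and 17 of 26 regions were at least 4-fold higher. In the Hoxb cluster 4 of 10 loci were higher and 0 lower, in Hoxc 2 of 9 higher and 2 lower, and in Hoxd 3 of 6 higher and 0 lower, with medians of 0.47, 0.32 and 0.72. The Hoxb sums were 205 and 235 CPM in line 112 and 166 and 172 CPM in line 119. Those of Hoxc were 91.8 and 165 against 119 and 108 CPM, and those of Hoxd 64.2 and 98.0 against 66.3 and 65.5 CPM. In Hoxc and Hoxd only replicate 2 of line 112 lay above line 119, and replicate 1 lay below it. In the regional estimate 1 Hoxb locus was higher and 3 lower, and 3 Hoxd loci were still higher. Without chromosome 6, 9 of 25 Hox loci were higher, 2 were lower and the median was 0.52.

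The loci with the smallest p upward were mostly large genes with many regions that moved together. Ankfn1 had 155 and 138 CPM in line 112 and 12.3 and 14.4 CPM in line 119 (log2 3.47), and 16 of its 17 regions were at least 4-fold higher. Ptprd, a receptor phosphatase known as a tumour suppressor, had 172 and 136 against 14.9 and 17.4 CPM (3.27), with 34 of 37 regions at least 4-fold higher. Adcy2, an adenylate cyclase, had 89.3 and 65.8 against 3.89 and 5.22 CPM (4.12), with 9 of 9. Sorcs1 (3.65, 11 of 11 regions), Dpp10 (3.48, 14 of 16) and Oca2 behaved likewise. Pde3a (2.70), Clec2g (3.35) and Tspan11 (2.67) lie on chromosome 6 and had regional values of 0.96, 1.66 and 0.97.

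Downward, Kcna4, a potassium channel, had 23.6 and 32.3 CPM in line 112 and 189 and 196 CPM in line 119 (log2 -2.81), with 10 of 12 regions at least 4-fold lower. Ntm, a neural adhesion protein, had 108 and 127 against 499 and 491 CPM (-2.08), with 21 of 46 regions. Tbc1d9 (-2.34), Adgrl4 (-2.53, on chromosome 3) and Clnk (-2.06, on chromosome 5) were also among the 10 with the smallest p. Pex5l (-2.54) and Egfem1 (-2.59) on chromosome 3 had regional values of -1.28 and -1.20. Cacna2d1 (-2.96), Gm7361 (-2.97) and Dpp6 (-2.40) on chromosome 5 had -1.90, -1.75 and -1.18. By number of regions at least 4-fold lower the order was Magi2 with 24 (chromosome 5, log2 -1.78, regional -0.71), Alk, a receptor tyrosine kinase of the neural crest, with 22, Ntm and Lsamp with 21 each and Elmo1 with 20.

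Single regions far from starts held some of the largest differences. The largest increase with at least 3 counts in line 119 lay on chromosome 19 at 33391508 to 33392198, 106851 bp from Lipo4, with 127 and 82 counts against 1 and 2. The ratio was 128 (95% exact interval 43.3 to 627). A region 4173 bp from Vwc2 on chromosome 11 (11109124 to 11109695) had 103 and 53 counts against 0 and 3. The largest decrease lay inside Dpp6 on chromosome 5 (27081198 to 27081834), with 1 and 2 counts against 222 and 159, and line 119 was higher by a ratio of 69.0 (23.4 to 336). A region inside Qrfpr on chromosome 3 (36189104 to 36189664) had 3 and 0 against 185 and 138, and one 7918 bp from Ccl1 on chromosome 11 (82168183 to 82168748) had 2 and 1 against 130 and 100.

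Start regions held a smaller share of the calls than other regions. Within 1 kb of a start, 34.0% of 13631 regions were called and 3.95% by 4-fold, against 50.3% and 17.6% of the 120437 other regions. Start regions made up 10.2% of tested regions, 10.3% of those higher in line 112 and 4.17% of those lower. Of regions outside genes and more than 50 kb from one, the share was 18.1% of all tested, 14.8% of those higher and 25.2% of those lower. It was 21.1% of those at least 4-fold higher and 32.7% of those at least 4-fold lower.

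Among start regions, some of the deepest decreases were at Sox2, Mt2 and Dclk1, whose promoters are printed above, and at Tbx18. The regions at the starts of Eif2s3y (-8.86) and Ddx3y (-8.69) on chromosome Y, Gm7361 (-4.11) and Clca4b (-3.37) were also among the deepest. Sox2, a pluripotency and neural stem cell factor, had 6 and 7 counts in line 112 and 229 and 183 in line 119 (chromosome 3, 34649612 to 34650174). That is 1.42 and 2.21 CPM against 29.7 and 31.0 CPM, a log2 fold change of -4.08 ± 0.34 (SE), and -2.83 in the regional estimate. Mt2, a metallothionein, had 7 and 13 against 200 and 142 counts (chromosome 8, 94172364 to 94172963, -3.19). Dclk1, a doublecortin-like kinase, had 5 and 5 against 116 and 102 (chromosome 3, 55461567 to 55462125, -3.55, regional -2.75), and Tbx18 had 4 and 9 against 151 and 139 (-3.58). At each of these both libraries of line 112 were far below those of line 119. Upward, Klrb1c on chromosome 6 had 150 and 35 counts against 1 and 0, and Lrch2 on chromosome X had 76 and 29 against 4 and 3 (4.69).

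AP-1 letters, TGANTCA on either strand, were found in 2565 of all 32851 RefSeq windows (7.81%) and in 6.30% of the 15208 windows with a tested region. Of 210 windows at least 4-fold lower in line 112, 45 (21.4%) held them, and of 403 at least 4-fold higher, 28 (6.95%). Among all 1548 lower windows the share was 14.9%. The M-box letters CATGTG were found in 14.2% of all windows, 8.52% of tested windows, 14.9% of those at least 4-fold higher and 11% of those at least 4-fold lower. TEAD letters were in 12.4% of tested windows, 15.9% of those at least 4-fold higher and 9.05% of those at least 4-fold lower. In that order, STAT letters had 6.62%, 9.18% and 5.24%, and E-box letters 9.78%, 5.71% and 6.67%. SOX letters had 7.58%, 9.93% and 11%, RUNX letters 12.4%, 17.9% and 16.2%, and CTCF core letters 5.66%, 6.45% and 3.81%. C/EBP letters were in 8.03% of tested windows, 49 of the 403 and 21 of the 210. Base composition moved with these sets. The median GC content was 61.3% in tested windows, 51.7% in those at least 4-fold lower and 55.3% in those at least 4-fold higher, and its part in the shares was not tested.

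Further stretches where 1 of the lines had almost no counts were searched for after the Stat5b value had been seen. A stretch was at least 4 consecutive regions with at most 3 counts each in one line and a mean of at least 20 in the other. There were 13, of which 7 were empty in line 112 and 6 in line 119. At most 3 counts were rare in regions without a peak of the line, 1.5% of them in line 112 and 4.06% in line 119. One of those empty in line 119 is the stretch over Stat5b and Stat5a. Another held 7 regions on chromosome 17, from 6424490 to 6566767, with 225 and 156 counts in line 112 and 3 and 3 in line 119, and lines 113 and 73 had 682 and 391. It overlaps Dynlt1b, a dynein light chain gene with near-identical copies beside it, so the split of reads among these copies is uncertain.

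On chromosome Y, 9 regions with Ddx3y, Eif2s3y, Kdm5d and Uty had 0 counts in line 112 and 437 and 340 in line 119, with 1 in line 113 and 500 in line 73. The lines therefore differ in signal from chromosome Y as well as in their labels. The same difference recurs between lines 113 and 73, so chromosome Y signal and genotype label cannot be told apart in either pair.

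The other knockout and wild-type lines of the study, 113 with p44 and 73 with p68, share no library with this comparison and show which differences recur. There, 54.5% of regions differed, 27.1% higher and 27.4% lower in line 113. Of the regions higher in line 112, 44.3% were also called higher in line 113 and 14.5% were called lower. Of those lower in line 112, 38.7% were also lower in line 113 and 17.9% higher. Among regions at least 4-fold higher the shares were 54.9% and 13.0%, and among those at least 4-fold lower 41.2% and 11.8%. The difference between the contrasts, tested in 1 fit, was called in 42.4% of regions and 47.7% of loci.

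At the starts of Dct, Tyr and Tyrp1 and the third start of Mitf the lines fell in the same order in both pairs. Line 113 had 63.5 CPM at the Dct start and line 73 had 0.529 CPM. At the third start of Mitf the means were 18.1 and 0.655 CPM, and at the Tyr start 18 and 0.931 CPM. The other starts of Mitf were not called in lines 113 and 73. The first had 36.7 and 38.7 CPM (log2 -0.08) and the second 2.63 and 2.08 CPM (0.31). Over loci, the log2 fold change of Dct was 2.80 in lines 113 and 73 against 0.59 in lines 112 and 119, and that of Tyr 4.02 against 0.36. The difference between the contrasts was -2.21 for Dct and -3.66 for Tyr, and it passed the test. Sox10 was at 2.55 against 0.36 and Pax3 at 2.08 against 0.50, with differences of -2.19 and -1.58 that passed as well. Oca2 was at 3.49 and Mlana at 2.28, beside 3.14 and 2.57 in lines 112 and 119.

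Other loci went opposite ways. Pex5l was 2.27 higher (log2) in line 113 and 2.54 lower in line 112, each against its wild-type line, and Egfem1 was at 2.50 and -2.59. Ntm was at 1.14 and -2.08, and Clnk at 1.2 and -2.06. Of the start regions, Sox2 was at 2.67 there against -4.08 here, Mt2 at 1.19 against -3.19 and Lrch2 at -3.62 against 4.69. The starts of Dclk1 and Tbx18 were lower in both pairs, at -2.86 and -4.94 there. Klrb1c did not pass there (0.32, adjusted p 0.662). The Hox medians of the Hoxa, Hoxb, Hoxc and Hoxd clusters were -1.52, -0.65, -2.66 and -1.43 in lines 113 and 73, against 2.2, 0.47, 0.32 and 0.72. Of the C/EBP loci, Cebpd was at 0.19 there against -0.86 here, and Cebpa at -0.38 against -0.35. The lower level at the Cebpa start region did not recur, with 36.0 CPM in line 113 and 35.9 CPM in line 73. The log2 fold change was 0.01 there (adjusted p 0.982) against -0.71 here, and the difference between the contrasts passed (adjusted p 0.0288). Ccl2, Timp1 and Col3a1 were lower in both knockout lines, at -3.19, -2.80 and -1.49 beside -2.31, -2.16 and -1.32. Sox9 (-1.21), Col5a2 (-0.79), Lamb1 (-0.34), Mmp10 (-0.79), Mmp13 (-1.94) and Cxcl1 (-1.32) were also called lower in line 113. Nes and Itga1 were called higher there, at 1.13 and 0.29 against -0.93 and -1.01 here. Tnc (0.19) and Col8a1 (-0.23) were not called there, against -1.01 and -0.99 here. At Nes, Itga1, Tnc and Col8a1 the difference between the contrasts passed.

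**Figure D5:**
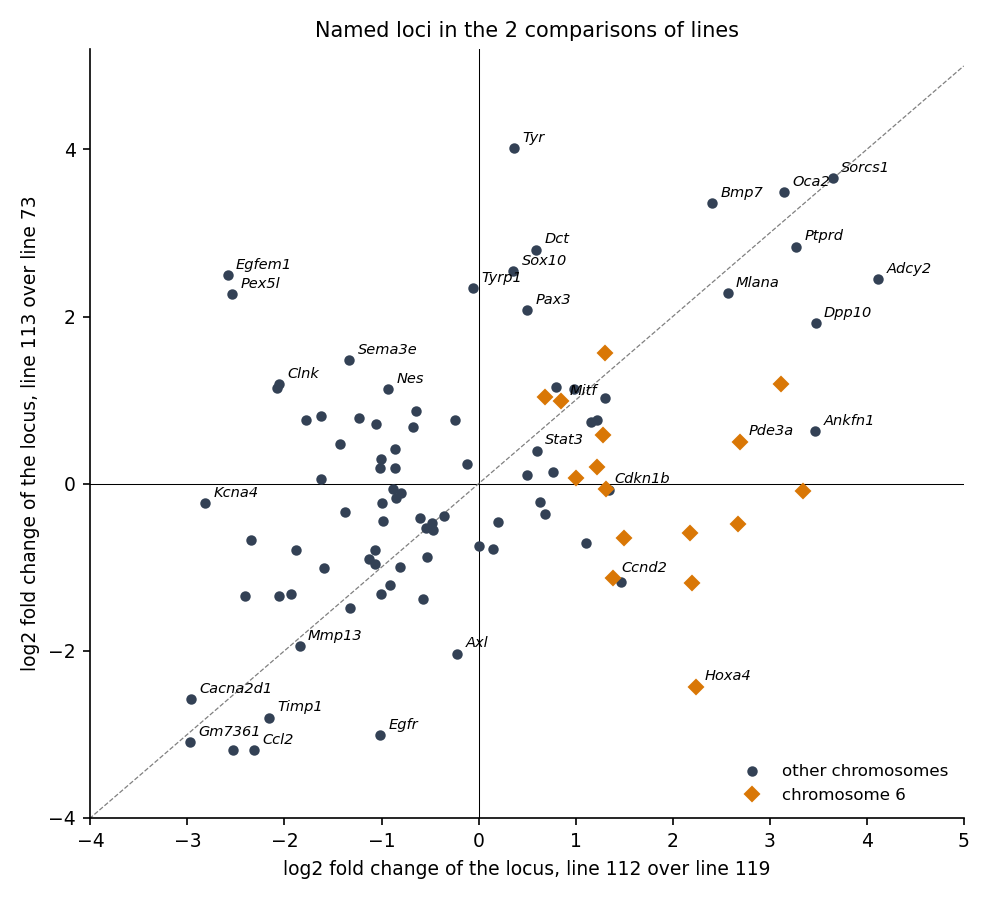
Log2 fold change of named loci in lines 112 over 119 (horizontal axis) and in lines 113 over 73 (vertical axis), with diamonds for loci on chromosome 6 and circles for the others. Stat5b and loci not reported here are not drawn. Oca2 lies high on both axes at 3.14 and 3.49, while Pex5l lies at -2.54 and 2.27.

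The authors' peak calls were compared by overlap. Peaks numbered 38743 and 20387 in line 112 and 94906 and 85498 in line 119. On average 86.0% of line 112 peaks overlapped a line 119 peak by at least 1 bp, 26.3% in the reverse direction and 77.7% between replicates. With the same number of peaks in each library, 20387, these were 52.1%, 49.4% and 81.2%, so the unequal first values moved with the number of peaks. Over all tested regions, 69.3% overlapped a peak of line 119 and 27.8% a peak of line 112. Of the regions at least 4-fold lower in line 112, 99.6% overlapped a peak of line 119 and 2.05% a peak of line 112. Of those at least 4-fold higher, 39.0% overlapped a peak of line 112 and 4.10% one of line 119.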

How the data were processed

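The authors deposited raw counts for 148664 regions in 8 libraries and a peak list per library. The peak lists hold a score, a ratio over background and the −log10 of p and q for each peak, as deposited by the authors. These were used only to rank peaks within a list, and the smallest q chose equal numbers of peaks. Bowtie2 2.2.4, Picard 1.118 and MACS2 2.1.1.20160309 and the builds mm10 and GRCm38 are named in the submitters' processing notes. The treatment of duplicate reads and of the transposase offset is not given in the sources used here, and PCR duplicates would make counting error larger than it appears. The table of counts has 0 columns that belong to other samples.

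Regions were kept by filterByExpr (minimum count 10, minimum total 15). The test was edgeR 4.0.16 in R 4.3.3 (quasi-likelihood, robust, TMM, two-sided) with a mean per line over the 8 libraries, which share 1 estimate of spread, and Benjamini-Hochberg adjustment over all regions or all loci at 0.05. Standard errors were derived from the F statistic. Strong calls also needed a log2 fold change of at least 2. Symbols, starts and promoter windows came from RefSeq tables of GRCm38.p6. Of the 10000 strongest regions 59.5% lay within 1 kb of a start, against 2.16% to 4.34% with starts shifted by 0.1 to 10 Mb. No genome sequence was used here, so the planned motif search in regions was replaced by one in promoter windows. Overlaps used bedtools 2.31.1, and intervals and limits of 3 counts cover counting error only. A simulation of 30000 regions changed 100 by 2-fold and 100 by 4-fold in line 112. It recovered 29% and 72% of them, with 6 false among 107 calls. All other regions had the same mean in every line, and all libraries had the same spread. The data differ from this in both respects, so these rates do not give the recovery or false calls of this comparison. Alternatives were DESeq2 1.42.0, other scalings, filters, library sets, region sets and gene distances.

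The members, gene lists and tests were chosen with earlier results of these data known. Named were 22 genes listed whatever their values, the 10 loci per direction with the smallest p and at least 5 regions, the 10 regions per direction with the largest change among those with at least 5 CPM, up to 4 loci of each list by p (fewer where the list is described briefly), and the 5 loci per direction with most strong regions. The start regions of Sox2, Mt2, Dclk1, Tbx18, Klrb1c and Lrch2, the further regions inside named genes and the stretches without counts were chosen after their values were seen. Some results at loci that these rules name are not reported here.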

Additional observations from a re-analysis of the deposited data

Results flagged for a closer look

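The contrast of line 112 over 119 was set against that of line 113 over 73 in 1 fit. Of 49 named loci the difference passed edgeR's quasi-likelihood test with Benjamini-Hochberg adjustment in 35. In 15 the log2 fold change of line 112 was the more positive one and in 20 the more negative one. Over all loci the difference passed in 8326 of 17466 (47.7%). Many of the 49 were chosen for their change in line 112 over 119, which is part of the tested difference. The number that passed is therefore not a result about these loci. For pigment and lineage loci the difference between the log2 fold changes was -3.66 at Tyr, -2.4 at Tyrp1, -2.21 at Dct, -2.19 at Sox10, -1.58 at Pax3 and -0.36 at Sox5. For receptors and factors of the dedifferentiated state and of growth it was 2.0 at Egfr, 1.81 at Axl, 0.93 at Myc, 0.82 at Fosl1, 0.75 at Socs3, -1.01 at Ngfr, -1.05 at Cebpd and -1.51 at Cdkn2a. Among the loci with the smallest p or the most strong regions, it was positive at Stat5b (8.59), where line 119 had almost no counts, Clec2g (3.43), Tspan11 (3.16), Ankfn1 (2.84), Pde3a (2.19), Adcy2 (1.67), Dpp10 (1.56), Itpr2 (0.93), Pde1c (0.7) and Adgrl4 (0.65). It was negative at Egfem1 (-5.09), Pex5l (-4.81), Clnk (-3.25), Ntm (-3.22), Kcna4 (-2.58), Magi2 (-2.54), Lsamp (-2.44), Tbc1d9 (-1.67), Dpp6 (-1.05), Alk (-0.71) and Elmo1 (-0.61).

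Outside the regions of the count table, the peak lists held peaks on unplaced scaffolds, on average 38.0 per library in line 112 and 33.0 in line 119.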

How the results depend on the processing

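The 65214 regions called became 37541 with DESeq2 (15532 higher, 22009 lower) and 17407 with at least 50 counts on average (7882 higher, 9525 lower), where fewer regions were tested. Leaving out a library gave 20184 to 26225 regions and 2517 to 3597 loci higher in line 112, the lowest of each without replicate 1 of line 119. Counting only gene ends within 1 kb gave 4548 loci, 2145 higher and 2403 lower. The replicate numbers did not pair the libraries (the deviations of same-numbered libraries correlated at -0.004), and with the number as a block 63965 regions and 8383 loci were called. Among 103 named loci, 67 kept their direction and side of the threshold under every setting run, and among 60 named regions 44 did. The cause of the changes below was not tested.

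The share of higher regions also higher in line 113 was 46.9% with DESeq2, 41.99% with total counts, 47.9% with scaling at gene ends, 48.7% in the regional estimate, 42.4% with every region, 35.3% with at least 50 counts, 47.9% in peaks only and 43.4% to 53.0% with a library left out. The share of lower regions also lower there was 37.3% with DESeq2, 39.96% with total counts, 37.3% with scaling at gene ends, 39.8% in the regional estimate, 45.8% with at least 50 counts and 38.5% to 40.3% with a library left out. Within 1 kb of a gene end lay 5.78% of strong higher and 3.33% of strong lower regions, and within 1 kb of a start 10.3% and 4.17% of all calls. Over all regions of chromosome 6 the median was 1.01. Peak overlap was 52.3% with a 50% reciprocal rule and 52.1% and 49.4% with equal numbers of peaks. AP-1 letters were in 14.9% of all lower windows. Stretches without counts numbered 4 with at most 1 count, 59 with at most 5 and 7 with at least 6 regions.

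Some directions reversed. In the regional estimate these were the loci Ccnd2 (-0.31), Cdkn1b (-0.19), Egfr (0.0451), Itpr2 (-0.73), Socs3 (-0.43), Sox5 (-1.06), Spry1 (0.40), Tead4 (-0.48) and Tyrp1 (0.12) and the strongest end regions of Axl (-0.47) and Fosl1 (-0.22). From gene ends within 1 kb they were Egfr (0.83), Mmp13 (0.33), Socs3 (-0.0642) and Tyrp1 (1.03), and within 10 kb Cebpb (0.0630), Socs3 (-0.19) and Tyrp1 (0.25). Total counts reversed the Tyrp1 locus (0.0485) and the Socs3 region (0.10). DESeq2 reversed the Axl region (-0.0192) and the Socs3 locus (-0.00338). Scaling at gene ends reversed the regions of Axl (-0.15) and Cebpb (-0.00443) and the Socs3 locus (-0.14), and the offset following mean count the Axl region (-0.27) and the Pmel locus (-0.0251). At least 50 counts reversed the Socs3 locus (-0.12) and region (0.15), and peaks only that region (0.0753). With a library left out, the loci ranged from -0.38 to 0.0771 at Cebpb, -0.23 to 0.58 at Pmel, -0.0725 to 0.0287 at Socs3 and -0.19 to 0.0233 at Tyrp1. The regions ranged from -0.10 to 0.44 at Cebpb, -0.21 to 0.20 at Axl, -1.55 to 0.19 at Bcl3, -0.0352 to 0.41 at Pax3, -0.00466 to 0.48 at Pmel and -0.13 to 0.0421 at Socs3.

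From gene ends within 1 kb calls were lost at the loci Bcl3, Lsamp, Mitf, Pax3, Pde1c, Runx2, Sox10, Erg, Il6st, Itga1, Jak1, Ltbp1, Runx1, Spi1 and Tap2, and within 10 kb at Il6st and Jun. In the regional estimate they were lost at Pde1c, Sox10, Stat3 and Sema3c, with at least 50 counts at Fosl1, Itpr2, Pax3, Tyr and Spi1, and with scaling at gene ends at Sox10 and Tyr. That scaling gave 2945 of all 17466 loci higher and 6019 lower. Growth factor receptors were then at 3 higher and 5 lower and cell cycle regulators at 5 and 6. Gene ends within 1 kb turned the TGF-beta and BMP list to 6 higher and 4 lower, beside 2145 and 2403 of all 13282 loci.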
